A study of Mus musculus with 20 samples.

Results

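The 9 neuronal-type subunits of the nicotinic acetylcholine receptor (Chrna2, Chrna3, Chrna4, Chrna5, Chrna6, Chrna7, Chrnb2, Chrnb3 and Chrnb4) were followed through the development of the mouse habenula. They were chosen by name and are 9 of the 37994 genes of the table that holds the developmental series. All 9 are also in the table of 36104 genes that holds a second set of plates, dissected by side. Chrna5, Chrna3 and Chrnb4 lie next to each other and are called the gene cluster, and they were set against the other 6 subunits.

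Single cells were sorted into 384-well plates and their RNA was sequenced by Cel-seq2, which tags each molecule at its 3′ end with the barcode of its well and a unique molecular identifier (UMI). The series holds 15 plates of habenula from the Brn3a-tauLacZ line, a reporter line for Brn3a (Pou4f1), a transcription factor of habenular neurons. There were 2 plates each at embryonic days E11, E13, E15 and E18, at postnatal days P4 and P7 and from adults, and 1 plate at E12. The second set holds 5 E18 plates of C57BL/6 mice without that reporter, 2 of the left habenula, 2 of the right and 1 of both sides. The sources used here do not give the sort gate, the sex, the adult age or the genotype at the reporter locus, nor do they say whether the plates of a group come from separate animals. The p-values therefore measure the spread between plates, which may be technical.

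Nicotinic receptors are pentameric cation channels opened by acetylcholine or nicotine. Alpha subunits such as those encoded by Chrna3, Chrna4 and Chrna6 form the binding site together with a beta subunit encoded by Chrnb2 or Chrnb4. The products of Chrna5 and Chrnb3 are accessory subunits that join such receptors, and the Chrna7 product can form a channel by itself. Neurons of the medial habenula, many of them cholinergic, project to the interpeduncular nucleus and are known for a high content of receptors built from the Chrna3 and Chrnb4 products.

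In the GRCm38 annotation the gene cluster spans 67900 bases of chromosome 9. Chrna5 lies at chr9:54980880-55007779 on the plus strand. Chrna3 lies at chr9:55010111-55026562 and Chrnb4 at chr9:55028154-55048779, both on the minus strand. The gap between Chrna5 and Chrna3 is 2331 bases and that between Chrna3 and Chrnb4 is 1591 bases. A second neighbouring pair, Chrnb3 (chr8:27368711-27399730, plus strand) and Chrna6 (chr8:27403212-27413944, minus strand), is separated by 3481 bases. The remaining members are alone, with Chrna4 at chr2:181018380-181043546, Chrna7 at chr7:63098692-63212569 and Chrnb2 at chr3:89746195-89764632 (all minus strand), and Chrna2 at chr14:66135039-66152948 (plus strand). Chrnb4 overlaps the antisense gene Gm47877, Chrnb2 overlaps Adar on the other strand and Chrna7 overlaps the provisional gene model Gm44741 on its own strand. The sources used here do not say whether the counting used strand, and the values of these 3 subunits may include reads of their overlapping partners.

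The promoters of the gene cluster are shown because its 3 genes are neighbours whose levels did not follow 1 course. Each sequence is the RefSeq window from 250 bases before to 50 bases after an annotated start in GRCm38.p6, read 5′ to 3′ on the strand of the gene, and capitals mark GGGCGG on either strand (CCGCCC when it lies on the other strand). Chrna5 has 2 entries. The windows are chr9:55026513-55026812 (Chrna3, minus strand), chr9:54980630-54980929 and chr9:54981238-54981537 (Chrna5 entry 1 and entry 2, plus strand) and chr9:55048495-55048794 (Chrnb4, minus strand).
Chrna3: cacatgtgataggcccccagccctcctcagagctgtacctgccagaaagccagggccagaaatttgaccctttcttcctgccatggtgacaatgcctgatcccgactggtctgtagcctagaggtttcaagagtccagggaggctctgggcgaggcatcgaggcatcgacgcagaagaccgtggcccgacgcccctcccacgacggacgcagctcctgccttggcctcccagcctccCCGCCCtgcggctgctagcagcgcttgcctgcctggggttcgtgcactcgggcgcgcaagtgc
Chrna5 entry 1: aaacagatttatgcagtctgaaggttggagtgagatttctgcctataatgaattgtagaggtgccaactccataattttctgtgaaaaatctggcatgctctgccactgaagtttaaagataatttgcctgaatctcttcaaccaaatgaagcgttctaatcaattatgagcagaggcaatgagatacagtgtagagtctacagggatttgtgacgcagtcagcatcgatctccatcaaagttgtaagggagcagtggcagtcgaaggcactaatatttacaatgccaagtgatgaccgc
Chrna5 entry 2: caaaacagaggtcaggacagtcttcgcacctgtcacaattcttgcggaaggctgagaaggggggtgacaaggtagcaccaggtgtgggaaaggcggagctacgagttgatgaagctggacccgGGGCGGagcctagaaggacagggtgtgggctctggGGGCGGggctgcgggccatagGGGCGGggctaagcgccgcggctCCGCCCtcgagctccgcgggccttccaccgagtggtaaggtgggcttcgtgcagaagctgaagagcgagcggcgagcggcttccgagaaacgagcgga
Chrnb4: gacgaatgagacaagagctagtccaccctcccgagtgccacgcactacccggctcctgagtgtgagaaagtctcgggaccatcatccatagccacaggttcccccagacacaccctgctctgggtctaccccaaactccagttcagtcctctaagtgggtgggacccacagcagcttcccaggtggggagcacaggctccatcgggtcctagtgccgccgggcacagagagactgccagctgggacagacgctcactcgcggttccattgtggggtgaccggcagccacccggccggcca

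GGGCGG, the core of a GC box, occurred 4 times in the second Chrna5 entry, 1 time in the Chrna3 window, and not in the first Chrna5 entry or the Chrnb4 window. It also occurred 3 times in the Chrna4 window and 1 time each in those of Chrna7 and Chrnb2. Of all 32817 windows of this length, 35.63% held it. The GC content was 64.3% for Chrna3, 41.3% and 65.0% for the Chrna5 entries and 63.0% for Chrnb4, beside a median of 52.7% over all windows. The other motifs searched on both strands, TAATTA and ATTTGCAT, were in none of the 7 windows of the 6 subunits with an entry, and in 5.3% and 1.74% of all windows.

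After wells with under 1000 UMIs, under 500 genes or over 20% mitochondrial counts were left out, 3729 wells of the series remained, from 56 on the first adult plate to 345 on the second E11 plate, and 1082 of the second set (54 to 333 a plate). The summed count of the kept wells ran from 758697 on the first adult plate to 7760372 on the first P7 plate in the series, and from 1849863 to 6586449 in the second set. Between 28.1% (the first E18 plate) and 92.2% (the first E11 plate) of the kept wells of a series plate held a Pou4f1 UMI. Chrna3, Chrna4, Chrna7, Chrnb2 and Chrnb4 gave at least 1 UMI on each of the 20 plates. The first E18 plate differed from the second in its markers as well. All 8 progenitor markers were above 0 there, with a summed level of 3795 CPM (counts per 1000000 counts in the kept wells of a plate), against 219 CPM on the second plate, where Hes5 was at 0 (P4: 348 and 312 CPM). The 10 medial habenula markers summed to 253 CPM, with Slc18a3 at 0, against 3765 CPM on the second plate with all 10 above 0 (P4: 6513 and 7481 CPM). The tests between E18 and P4 are therefore also given for Pou4f1-positive wells alone, while levels and shares are for all kept wells unless stated.

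A molecule gives 1 tag whatever its length, so CPM values of different subunits were compared without a correction for length. Other differences in counting between genes were not corrected. Chrna7 was counted almost wholly as unspliced molecules, as given further below. Its place in the order and in the subunit sums is therefore less certain. In a plate sum, fewer cells of a type and less RNA per cell cannot be told apart.

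Within the gene cluster, Chrna3 was present from the earliest plates and was 8.06 times higher after birth (pooled CPM ratio, 95% interval 7.58 to 8.58, counting error only), Chrnb4 was near 0 at E11 and prominent from P4, and Chrna5 was highest at E11, at or near 0 from E13 to E18 in the series and higher again at P4 and P7. Chrna3 encodes the alpha subunit of the receptors known from the medial habenula. The E11 plates held 38.8 and 47.8 CPM, the E12 plate 45.1, the E13 plates 39.8 and 37.7, the E15 plates 50.5 and 87.7, and the E18 plates 22.7 and 64.8. After birth it reached 411 and 444 CPM (P4), 384 and 410.4 (P7), then 209 and 326 (adult). Every postnatal plate lay above every embryonic plate, and the 2 adult plates lay below the 4 plates of P4 and P7. The share of all genes that separate embryonic from postnatal plates was not counted, here or for the subunits below. By the edgeR test over these stages 50.5% of all genes were called.

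Chrnb4 encodes the beta subunit that pairs with the Chrna3 product. Its level was 0.966 and 1.02 CPM at E11, 3.16 at E12, 1.14 and 3.19 at E13, 9.77 and 9.21 at E15, and 4.39 and 5.27 at E18. After birth it stood at 72.4 and 82.4 CPM (P4), 81.5 and 82.2 (P7), then 36.9 and 117 (adult). The embryonic and postnatal plates of the series did not overlap, and the 2 adult plates lay on either side of those of P4 and P7. The gap was narrow beside the second set, whose second left E18 plate was at 33.5 CPM, close to the first adult plate.

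Chrna5 encodes the accessory alpha subunit. Its level was 21.4 and 22.3 CPM at E11, 4.84 at E12, 0.568 and 0 at E13, 0.543 and 1.19 at E15, and 1.60 and 0 at E18. On the later plates it was found at 9.33 and 10.4 CPM (P4), 9.28 and 8.09 (P7), then 0 and 1.79 (adult). Both E11 plates were thus above all later plates, and the embryonic and postnatal ranges overlapped. At the depth of the second E13 plate a count of 0 allows up to 1.59 CPM, and on the first adult plate up to 3.95 CPM (3 counts, counting error only).

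**Figure D1:**
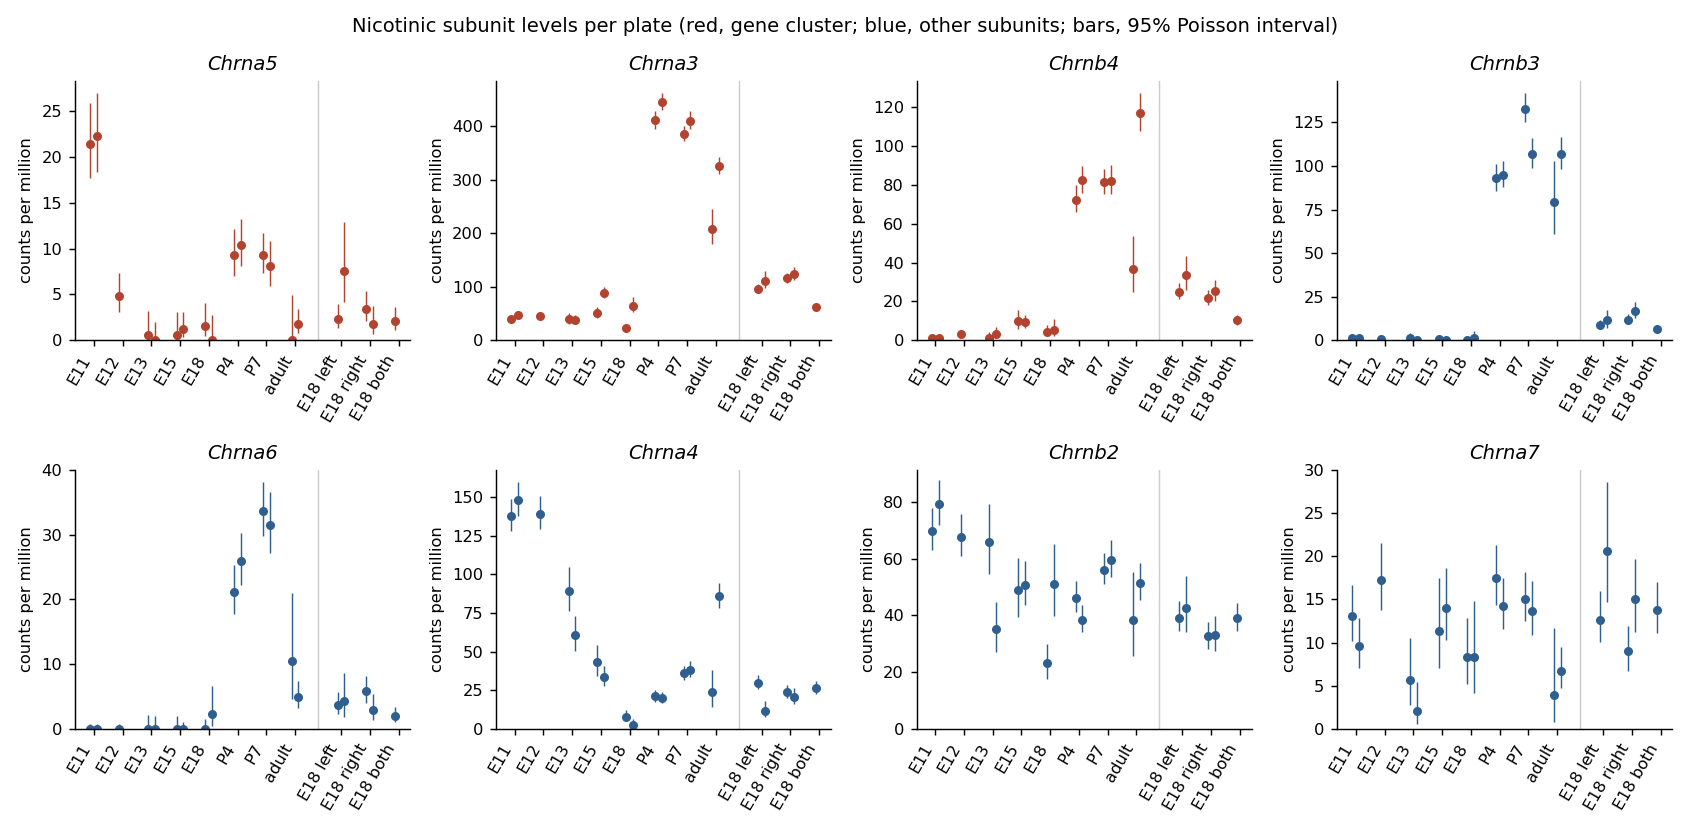
Level of 8 subunits on every plate in CPM, 1 point per plate with its 95% Poisson interval, by stage for the series and, right of the grey line, by side for the second set, with the gene cluster in red and the other subunits in blue and each panel on its own axis from 0. Chrna3, Chrnb4, Chrnb3 and Chrna6 sit higher on every postnatal plate than on any embryonic series plate. The share of all genes that separate so was not counted. Chrna4 runs from 148 CPM at E11 to 2.26 CPM at E18, and Chrna5 is at or below 1.60 CPM on the series plates from E13 to E18.

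Outside the gene cluster, Chrna4 and Chrnb2, which form the most widespread heteromeric receptor of the brain, led the earliest plates. Chrna4 was at 137 and 148 CPM at E11, 139 at E12, 89.2 and 60.6 at E13, 43.4 and 33.6 at E15 and 7.98 and 2.26 at E18, then 21.0 and 19.8 (P4), 35.8 and 38.2 (P7) and 23.7 and 85.7 (adult). Each embryonic stage lay below the one before it from E12 on, the E18 plates were the lowest of the series, and the 2 adult plates differed more from each other than those of any other stage. The second E13 plate held fewer Pou4f1-positive wells (51.1%) than the E11 plates (92.2% and 88.1%). In such wells Chrna4 was at 141 and 150 CPM at E11, 94.3 and 74.3 at E13, 46.8 and 35.2 at E15, and 8.575 and 2.43 at E18. Chrnb2 kept to a narrower band, 69.9 and 79.3 CPM at E11, 67.8 at E12, 65.9 and 35.0 at E13, 48.9 and 50.8 at E15, 23.1 and 51.2 at E18, then 46.3 and 38.5 (P4), 56.2 and 59.6 (P7) and 38.2 and 51.5 (adult). Its embryonic and postnatal ranges overlapped.

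Chrnb3 and Chrna6, neighbours on chromosome 8 whose products are often found in the same receptors, were at or near 0 in the embryonic series plates and higher from P4 on. Chrnb3 was at 1.35 and 1.43 CPM at E11, 0.421 at E12, 1.14 and 0 at E13, 0.543 and 0.297 at E15 and 0 and 1.51 at E18, then 92.8 and 94.98 (P4), 133 and 107 (P7) and 79.2 and 107 (adult). Chrna6 had no UMI on any plate from E11 to E15 or on the first E18 plate. It was at 2.26 CPM (3 UMIs) on the second E18 plate, then 21.2 and 25.9 (P4), 33.7 and 31.5 (P7) and 10.5 and 4.97 (adult). Within the series neither gene had embryonic and postnatal plates that overlapped, and for all genes such separation was not counted. On the left and right E18 plates of the second set both were above the limit for a count of 0, Chrnb3 at 8.95 to 17.0 CPM and Chrna6 at 2.88 to 5.79 CPM, and the highest of these Chrna6 values lay above the second adult plate. The adult plates of Chrna6 lay below those of P4 and P7.

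Chrna7, the subunit of homomeric receptors, was at 13.1 and 9.60 CPM at E11, 17.3 at E12, 5.68 and 2.12 at E13, 11.4 and 14.0 at E15, 8.38 and 8.29 at E18, then 17.5 and 14.3 (P4), 15.1 and 13.7 (P7) and 3.95 and 6.76 (adult). Chrna2, an alpha subunit known from few brain regions (the interpeduncular nucleus among them), gave 1 UMI on the first E13 plate, 3 UMIs in 1 well of the first P7 plate, 1 UMI on the first left plate and none elsewhere. It did not pass the filter on low counts. None of the remaining 7 subunits of the receptor family in the table, the muscle-type genes with Chrna9 and Chrna10, exceeded 2.00 CPM on any series plate, and none was tested.

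At E11 the order was Chrna4, Chrnb2, Chrna3, Chrna5, Chrna7, Chrnb3 and Chrnb4, with no neighbours in it overlapping between plates. By E13 and E15 the leaders overlapped, Chrna4 with Chrnb2 and Chrnb2 with Chrna3 at E13, and Chrna3 with Chrnb2 at E15. At E18 Chrna3 overlapped Chrnb2, both well above the rest. At P4 and P7 the order opened with Chrna3, Chrnb3, Chrnb4 and Chrnb2, again without overlap. In adults Chrna3 remained above all others, while Chrnb3, Chrnb4 and Chrna4 each overlapped the next in the order, Chrnb2 being the last of these.

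As a share of all counts of the 9 subunits, the gene cluster was the smaller part on all but 1 embryonic plate of the series and the larger part on every postnatal plate. It made up 21.6% and 23.0% at E11, 19.1% at E12, 20.3% and 29.5% at E13, 36.8% and 49.9% at E15 and 42.1% and 51.7% at E18. It made up 71.2% and 73.5% (P4), 63.4% and 66.7% (P7) and 61.2% and 63.5% (adult). Within the series the highest embryonic plate (51.7%) lay below the lowest postnatal plate (61.2%). This separation does not extend to the second set, whose E18 plates were at 56.7% and 62.5% (left), 62.8% on each right plate and 45.7% on the plate of both sides. In Pou4f1-positive wells the second E15 plate (50.2%) and both E18 plates of the series (51.0% and 52.3%) also came to just over 50%. With stages weighted alike and E12 left out, the mean was 34.4% before birth and 66.6% after it, a difference of 32.2 percentage points beside a standard deviation of 5.13 points between plates of a stage (2 plates a stage, 7 stages, no test). In Pou4f1-positive wells the means were 36.1% and 66.8%. Within the series the change in share from E11 to E18 lay with the other subunits. These summed to 222 and 238 CPM at E11 and 39.5 and 65.6 CPM at E18. The gene cluster itself was at 61.2 and 71.1 CPM at E11 and 28.7 and 70.1 CPM at E18. The left and right E18 plates of the second set held the gene cluster at 124 to 152 CPM, above E11. Their other subunits summed to 83.3 to 94.4 CPM. In the series, the gene cluster reached 493 and 537 CPM by P4 and the other subunits 199 and 193 CPM. Most of the share was Chrna3. Without it, Chrna5 and Chrnb4 made up 9.17% and 8.90% of the remaining subunit counts at E11, 1.04% and 3.16% at E13, 29.1% and 32.4% at P4 and 19.2% and 31.7% in adults.

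**Figure D2:**
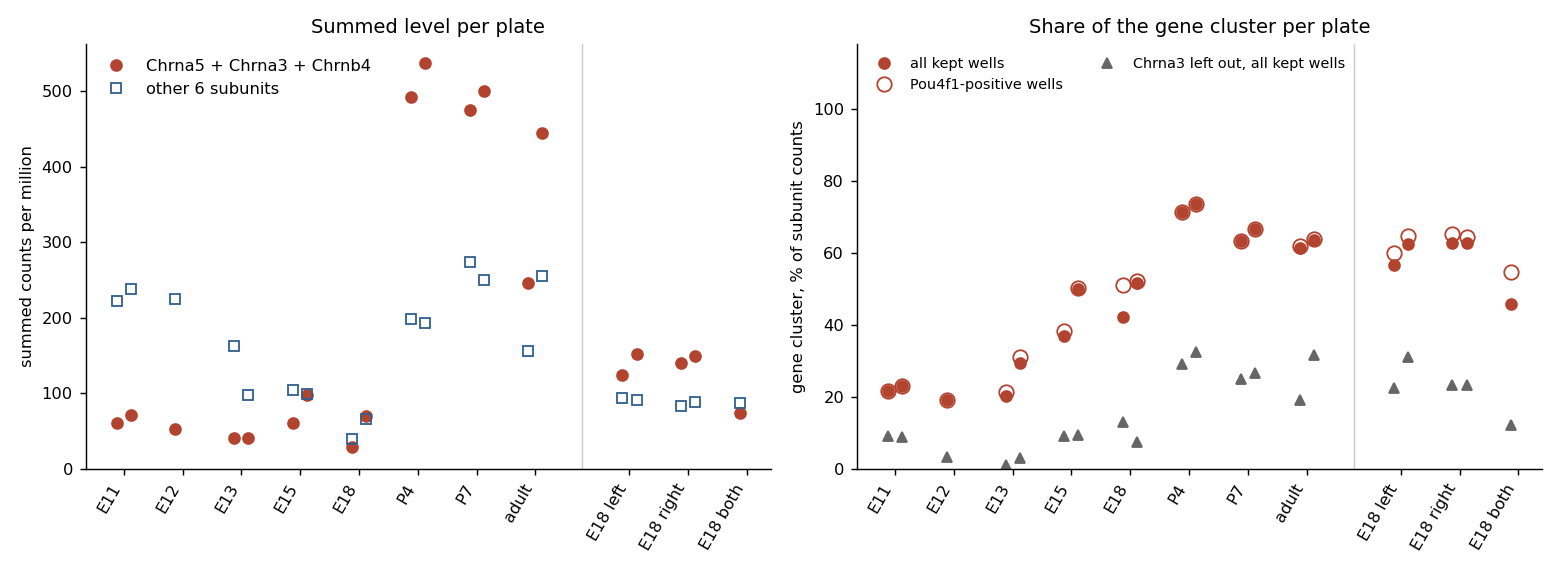
Left, summed CPM of Chrna5, Chrna3 and Chrnb4 (red) and of the other 6 subunits (blue) on each plate. Right, the percent of the summed subunit counts that belongs to the gene cluster in all kept wells (filled), in Pou4f1-positive wells (open) and with Chrna3 left out (triangles), where the embryonic series plates reach at most 51.7% and the postnatal plates start at 61.2%.

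Stages were compared with edgeR's quasi-likelihood test on plate sums, fitted across all 17453 genes that passed the filter on low counts, and adjusted by Benjamini-Hochberg over all of them. Of the 9 subunits, 8 were tested and Chrna2 was not. Adjusted p-values below 0.05 were counted as called, and log2 fold changes are given with their standard error.

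Between E18 and P4, 6 of the 8 tested subunits rose and none fell, in a comparison in which 19.6% of all genes were called and 9.2% were called higher. All 3 genes of the cluster were among them. Chrna3 rose by 3.51 ± 0.48 on the log2 scale (edgeR adjusted p = 0.00171) and Chrnb4 by 4.26 ± 0.50 (edgeR adjusted p = 0.000937). Chrna5 rose by 3.53 ± 0.81 (edgeR adjusted p = 0.0137), from 4 UMIs on the E18 plates together to 123 on the P4 plates. The sizes of these rises rest on the E18 plates of the series. The left and right E18 plates of the second set were not part of this test. They held Chrna3 at 96.5 to 123 CPM, Chrnb4 at 21.7 to 33.5 CPM and Chrna5 at 1.73 to 7.57 CPM. For Chrna3 and Chrnb4 these values lay above the series E18 plates and below the P4 plates.

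Of the other subunits, Chrna4 rose by 2.09 ± 0.56 (edgeR adjusted p = 0.0258) to a level still far below that of E11. On the left and right E18 plates of the second set, which were not part of this test, Chrna4 was at 11.9 to 29.7 CPM, a range that includes its P4 levels (21.0 and 19.8 CPM). Chrnb3 went from 2 UMIs to 1166 and Chrna6 from 3 to 294 (edgeR adjusted p = 0.000155 and 0.00984). Both passed the filter on low counts only through postnatal plates, so these p-values lend the rise no support of their own. With so few embryonic UMIs the pooled CPM ratio is given instead of the fitted value, 180.0 for Chrnb3 (95% interval 49.7 to 1488) and 30.3 for Chrna6 (10.3 to 148), intervals that cover counting error only. These ratios rest on the E18 plates of the series. On the left and right E18 plates of the second set Chrnb3 was at 8.95 to 17.0 CPM and Chrna6 at 2.88 to 5.79 CPM. These values lay above the series E18 plates and below the P4 plates. Chrna7 was at 1.15 ± 0.43 (edgeR adjusted p = 0.0791) and Chrnb2 at 0.42 ± 0.39 (edgeR adjusted p = 0.456) and neither was called. In Pou4f1-positive wells alone the same 6 subunits rose, where 20.4% of 16353 genes were called and 9.97% called higher, with Chrna3 at 3.02 ± 0.33 and Chrnb4 at 3.31 ± 0.52. The calls of Chrna4, Chrna5 and Chrna6 did not all survive the loss of a plate: without the first P4 plate Chrna4 and Chrna5 were at edgeR adjusted p = 0.0891 and 0.0549, without the second P4 plate Chrna4, Chrna5 and Chrna6 were at 0.102, 0.0787 and 0.0646, and without the second E18 plate Chrna4 was at 0.0537. In that last setting Chrnb2 was called higher, at 1.24 ± 0.37 (edgeR adjusted p = 0.0275, with 13.7% of genes called higher). The calls of Chrna3, Chrnb4 and Chrnb3 held under all 12 alternatives tried.

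Between E11 and E13, 1 of the 8 subunits was called, Chrna5, which fell, while 1.45% of all genes were called and 0.596% called lower. It went from 220 UMIs on the 2 E11 plates to 1 UMI on the 2 E13 plates (edgeR adjusted p = 0.0118), a pooled CPM ratio of 79.6 of E11 over E13 (95% interval 14.1 to 3158, counting error only). In Pou4f1-positive wells it was called as well (edgeR adjusted p = 0.0066, with 1.78% of genes called and 0.734% called lower). The call was lost without the first E11 plate (edgeR adjusted p = 0.0703), without the second (0.0926) and without the second E13 plate (0.119). Chrna3 and Chrnb4, its neighbours, were at -0.31 ± 0.45 and 0.96 ± 0.81 and were not called.

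No subunit was called by edgeR between E13 and E15 (0.0917% of all genes called), E15 and E18 (0.195%), P4 and P7 (0.00573%) or P7 and adult (3.58%). At an unadjusted p below 0.05 in edgeR there were 2, 1, 0 and 3 of the 8 subunits in these comparisons, beside 12.5%, 17.2%, 2.72% and 20.7% of all genes. DESeq2 called 1 (Chrna7), 1 (Chrna4), 0 and 2 (Chrna5 and Chrna6), beside 2.89%, 4.55%, 0.146% and 8.24% of all genes. Chrna4 between E15 and E18 came nearest in the embryo, at -2.90 ± 0.56 (edgeR adjusted p = 0.0805), and at -3.10 ± 0.64 in Pou4f1-positive wells (0.0853). It was called lower when wells above 3 times the median UMIs of their plate, which may be doublets, were left out (edgeR adjusted p = 0.0453). Without the second E18 plate, Chrna4, Chrnb2 and Chrna3 were called lower, where 4.25% of 19982 genes were called lower. The E18 plate that then remained is the one with 28.1% Pou4f1-positive wells and 3795 CPM of progenitor markers. Between P7 and adult, Chrna5 was at -2.72 ± 0.75 (edgeR adjusted p = 0.0703) and Chrna6 at -2.36 ± 0.71 (0.108).

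Over all embryonic against all postnatal stages, 5 of the 8 tested subunits were called higher and none lower, where 50.5% of all genes were called and 25.7% called higher, so calls were common in this comparison. Chrna3 rose by 3.01 ± 0.24 (edgeR adjusted p = 3.06e-06) and Chrnb4 by 4.76 ± 0.26 (3.48e-07). Chrnb3 rose by 7.36 ± 0.30 (edgeR adjusted p = 4.12e-08), a fitted value that rests on few embryonic UMIs. It went from 20 UMIs to 3400, a pooled CPM ratio of 122 (95% interval 79.0 to 200, counting error only). Chrna6 went from 3 UMIs on 8 embryonic plates to 767 on 6 postnatal plates (edgeR adjusted p = 3.12e-05), a pooled CPM ratio of 184 (62.7 to 893). Chrnb3 and Chrna6 passed the filter on low counts only through postnatal plates, so their p-values lend the rise no support of their own. Chrna4 at -0.04 ± 0.27 (edgeR adjusted p = 0.929), Chrnb2 at 0.01 ± 0.21 (0.979) and Chrna7 at 0.51 ± 0.24 (0.0927) were not called, and for Chrna4 the embryonic mean averages its high E11 and low E18 levels. Its pooled CPM ratio of postnatal over embryonic plates, in which plates count by their depth and stages are not weighted alike, was 0.448 (95% interval 0.416 to 0.482, counting error only). The same 5 subunits were called in Pou4f1-positive wells, where 55.2% of genes were called and 28.2% called higher.

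Chrna5 was called higher at 1.74 ± 0.47 (edgeR adjusted p = 0.0101), but this call depends on how stages are averaged. Its pooled UMIs were 230 before birth and 250 after it, a pooled CPM ratio of postnatal over embryonic of 0.781 (95% interval 0.651 to 0.939). The interval covers counting error only and not the spread between plates or stages. Plates count by their depth in this ratio, and 220 of the 230 UMIs were of the E11 plates. Without the second adult plate its log2 fold change was -0.039 (edgeR adjusted p = 0.893).

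The share of kept wells with at least 1 UMI of a subunit followed the levels only in part. Because wells differ in depth, each well was also thinned to 2000 UMIs, with shallower wells left out (2 to 18 a series plate). For Chrna3 the share was 39.5% and 41.7% at E11, 12.7% and 30.9% at E18, then 87.5% and 94.4% (P4), 85.9% and 84.0% (P7) and 41.1% and 58.8% (adult). Thinned, it was 8.18% and 9.45%, 3.51% and 10.7%, 49.6% and 56.5%, 46.6% and 51.8%, and 25.7% and 31.7% at the same stages. Every plate of P4 and P7 was above every embryonic and adult plate on both scales. As sequenced, the first adult plate (41.1%) lay below the second E11 plate (41.7%), although its level was higher (209 against 47.8 CPM). Thinned, it lay above that plate (25.7% against 9.45%).

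Chrnb4 was found in 1.62% and 1.45% of wells at E11 and in 61.3% and 62.1% at P4 (thinned 13.3% and 13.6%). Chrna5 was found in 24.3% and 22.3% of wells at E11 (thinned 4.12% and 3.76%) and in 14.6% on each P4 plate (thinned 1.83% and 1.76%), so that it was not limited to a few wells at either age. The share for Chrna4 was 68.9% and 71.6% at E11 (thinned 22.0% and 25.2%), the highest of any subunit there, and 5.62% and 2.73% at E18. Chrnb3 reached 51.2% and 54.7% at P4 (thinned 13.5% and 14.6%) and Chrna6 21.6% and 25.5%.

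**Figure D3:**
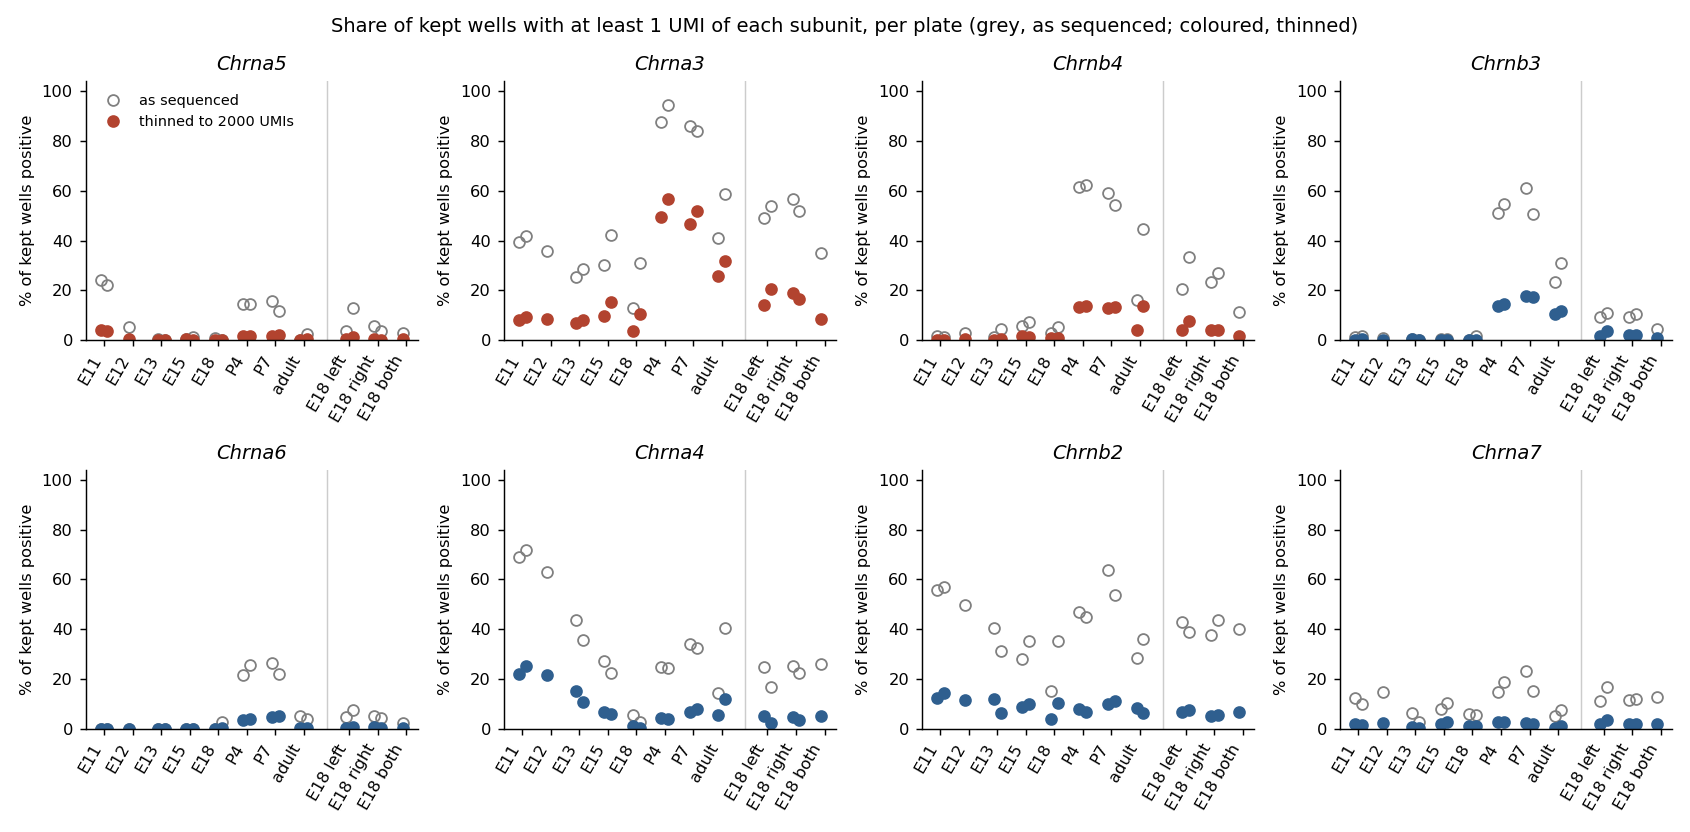
Percent of kept wells with at least 1 UMI of each of 8 subunits on every plate, by stage and, right of the grey line, by side, as sequenced (open grey points) and after thinning each well to 2000 UMIs (filled points, red for the gene cluster). Thinned, Chrna3 reaches 56.5% at P4, while Chrna4 leads at E11 with 22.0% and 25.2%.

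Wells of the named non-neuronal clusters are set beside these shares, and where their subunit UMIs come from was not tested. In the clusters named by endothelial, mural, fibroblast, astrocyte, ependymal, oligodendrocyte or microglia markers, Chrna3 was found in 22.1% of 190 adult wells (median 5205 UMIs) at 45.0 CPM, against 87.5% and 382 CPM in the other 208 adult wells (median 21236.5 UMIs). Set beside these 382 CPM, the other wells of P7 held Chrna3 in 88.1% of 581 wells at 408 CPM and those of P4 in 92.6% of 592 wells at 433 CPM. Of these 208 adult wells 25 came from the first adult plate and 183 from the second, so the pooled adult value is mostly that of the second plate. At P7 it was found in 38.5% of 39 such wells (median 11259 UMIs) at 66.6 CPM. At E18 it was found in 3.92% of 51 such wells and at E13 in 3.13% of 32. Chrna4 was found in 13.2% of the 190 adult wells at 26.2 CPM and Chrnb4 in 2.63%. Most of these 190 wells were of the second adult plate. The Chrna4 share of 14.3% on the first adult plate is over its 56 kept wells. Only 25 of these lay outside the named clusters, so that share is itself a mix. The adult plates held more non-neuronal RNA: the oligodendrocyte markers, all 10 above 0, summed to 11488 and 3208 CPM on the adult plates and to 242 and 188 CPM at P7, where Mobp was at 0. In Pou4f1-positive wells the adult Chrna3 level was 252 CPM on the first plate and 391 CPM on the second, both below the 398 and 419 CPM at P7.

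Among the wells of P4 and P7, the subunits differed between groups of wells that were clustered without the subunit genes, and only groups with 20 or more wells on a plate are described, without a test. The group led by Syndig1l, Pth2 and Slc18a3 held the most Chrna3, at 701, 588, 574 and 661 CPM on the 2 P4 and 2 P7 plates, and the most Chrnb3, at 132, 132, 248 and 218 CPM. In the group led by Clec18a and Neurod6, which like the former had the cholinergic genes Chat, Slc18a3 and Slc5a7 among its markers, Chrna3 was at 500, 488, 519 and 555 CPM. The group led by Gpr151, Oprm1 and Htr5b held the most Chrna4, at 66.0, 41.6, 99.2 and 98.5 CPM, while no plate of the former pair of groups exceeded 31.8 CPM. Its Chrnb3 was below that of both, at 33.8, 28.3, 68.8 and 72.7 CPM. The group led by Cck, Gad1 and Pde11a had the least Chrna3, at 66.4 CPM on the first P4 plate and 93.1 and 108 CPM at P7, where the non-neuronal wells held 66.6 CPM.

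On the second adult plate, a group of 157 wells led by Tac2 and Nfam1 had Chrna3 at 435 CPM, Chrnb4 at 159, Chrnb3 at 138, Chrna4 at 105 and Chrna5 at 2.497 CPM. This group came to 91.3% from that plate, so the group and the plate cannot be told apart. Its markers also included Olig2, Sox10 and Mag of the oligodendrocyte lineage, whose part in the levels was not tested. At E11, Chrna5 was in each of the 3 groups with 20 or more wells a plate, at 27.9 and 27.6 CPM in the one led by Onecut3 and Lin28a, 10.8 and 31.1 CPM in the one led by Tal2 and Lhx1, and 16.9 and 9.94 CPM in the one led by Tfap2b. The last had the most Chrna4, at 188 and 187 CPM.

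**Figure D4:**
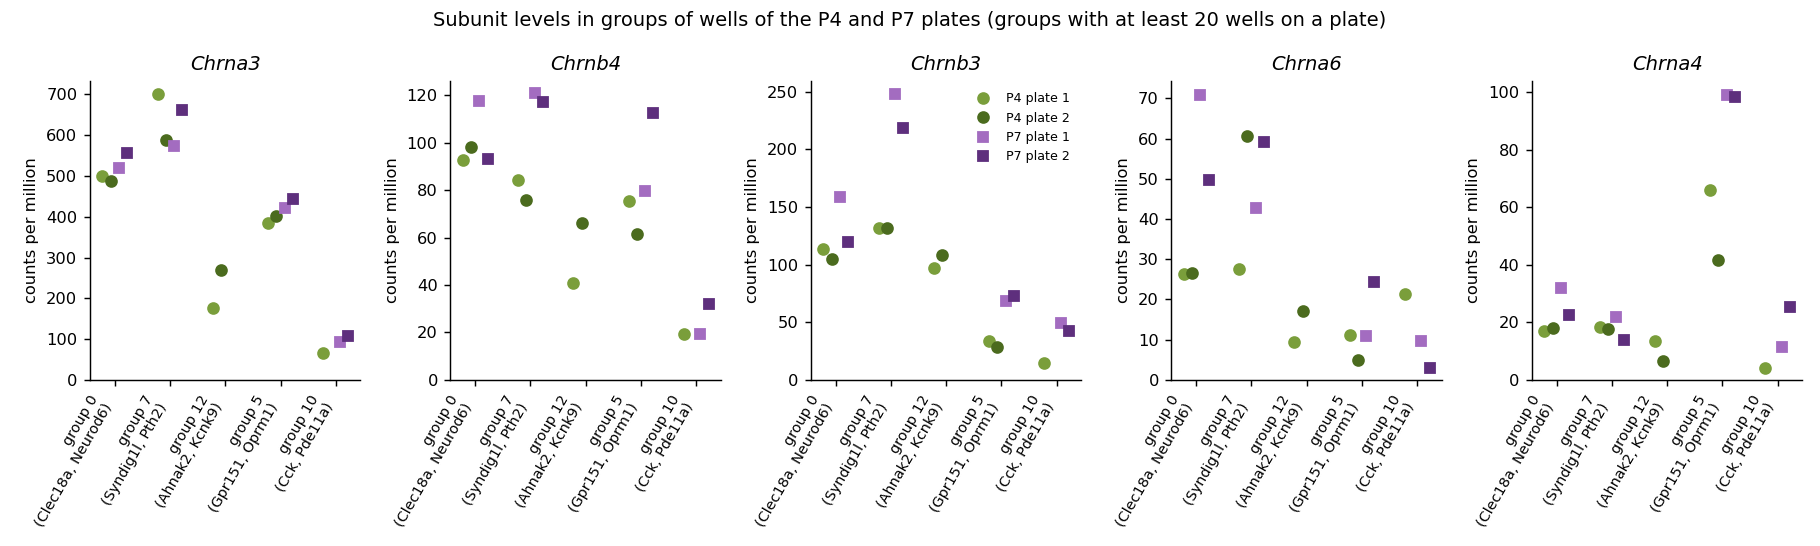
Level in CPM of Chrna3, Chrnb4, Chrnb3, Chrna6 and Chrna4 in 5 groups of wells of the P4 (circles) and P7 (squares) plates, 1 point per plate with 20 or more wells of the group, each panel on its own axis from 0. Chrna3 reaches 701 CPM in the group led by Syndig1l and Pth2 and is at or below 108 CPM in the group led by Cck, and Chrna4 reaches 99.2 CPM in the group led by Gpr151.

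The deposited tables also split each count into spliced and unspliced molecules. For Chrna7, between 95.2% and 100% of UMIs were unspliced on the 16 plates with at least 20 UMIs (median 98.0%), over both sets. For Chrnb2 the median was 0.276% (20 plates), for Chrna3 8.09% (20 plates), for Chrna4 3.43% (18), for Chrnb4 4.67% (12), for Chrnb3 4.88% (11), for Chrna5 10.3% (7) and for Chrna6 1.12% (7). Over all genes, 17.7% to 29.2% of a plate's counts were unspliced. Chrna7 was thus counted almost wholly as unspliced molecules on every plate with that depth. The sources used here do not say how unspliced was defined, and the part of Gm44741, which overlaps Chrna7 on the same strand, was not tested.

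**Figure D5:**
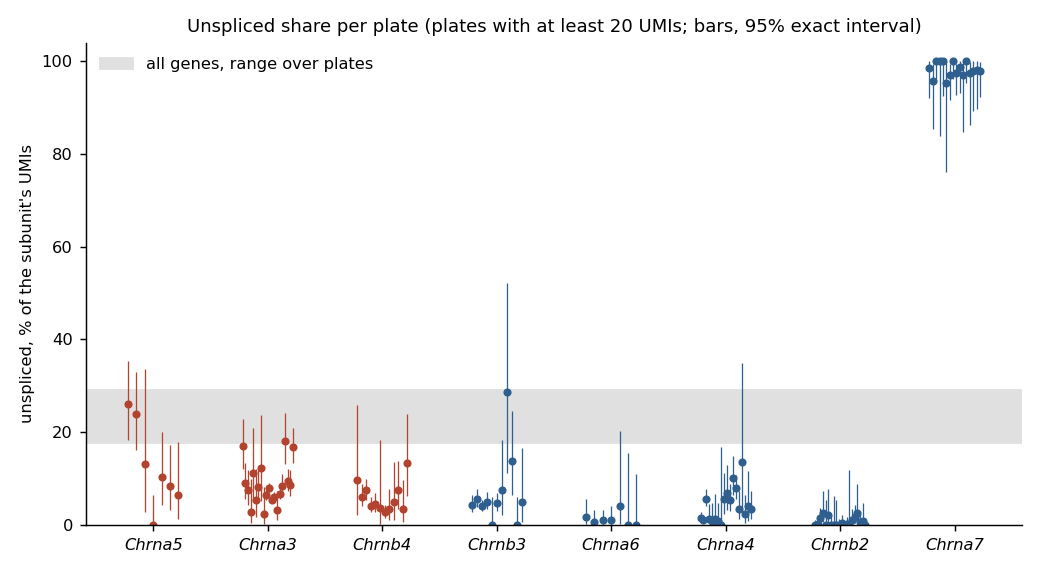
Percent of UMIs that were unspliced for each of 8 subunits, 1 point per plate with at least 20 UMIs of that subunit and its 95% exact interval, with the range over plates for all genes in grey. Chrna7 lies at 95.2% or more on all 16 plates, and the medians of the other subunits lie at or below 10.3%.

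Left and right habenula were compared on the E18 plates of the second set, and no subunit differed by the test. Chrna3 was at 96.5 and 110.5 CPM on the left plates and 115 and 123 on the right, Chrnb4 at 24.8 and 33.5 against 21.7 and 25.1, and Chrna5 at 2.36 and 7.57 against 3.44 and 1.73. Left and right did not overlap for Chrna3 and Chrnb3, higher on the right, or for Chrnb2, higher on the left. They overlapped for the other subunits tested. How many of all genes fail to overlap in this way was not counted, so no difference is read from it. Chrnb3 was at 8.95 and 11.4 CPM on the left and 11.8 and 17.0 on the right, and Chrnb2 at 39.2 and 42.7 on the left and 32.6 and 33.2 on the right.

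With 2 plates a side, edgeR called 0 of the 8 subunits and 0 of 15489 genes (0%; 182 genes, 1.18%, were at an unadjusted p below 0.05, none of them a subunit, and the alternatives called 0 to 39 genes). The right minus left differences were 0.19 ± 0.18 on the log2 scale for Chrna3, 0.50 ± 0.38 for Chrnb3 and -0.33 ± 0.22 for Chrnb2 (edgeR adjusted p = 1.00 for each). The left plates held more erythroid transcripts (19048 and 17219 CPM summed over the markers) than the right (3410 and 265 CPM), and their part in the subunit levels was not tested. The gene cluster made up 56.7% and 62.5% of the subunit counts on the left and 62.8% on each right plate. Beside the E18 plates of the series, the 4 left and right plates all had higher levels of 7 of the 8 subunits (Chrnb2, at 32.6 to 42.7 CPM, lay between the 2 series plates). How many of all genes separate in this way was not counted, so no difference between the sets is read from it. The first E18 plate of the series held 28.1% Pou4f1-positive wells, and the left and right plates 73.7% to 81.0%. For Chrna5 the second right plate, at 1.73 CPM (6 UMIs), lay close to the first series plate, at 1.60 CPM (4 UMIs). A count of 0 on the second series plate allows up to 2.26 CPM. In Pou4f1-positive wells the higher level did not hold for Chrna7, at 15.9 CPM on the first E18 plate of the series and at 9.75 CPM on the first right plate. No test was made, since the line and the dissection differ and the tables are separate.

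Of 5 genes that make or clear acetylcholine, 4 rose and 1 fell between E18 and P4, where 19.6% of all genes were called and 9.2% called higher, with a median log2 fold change of 5.56 in the list, -0.07 over all genes and 3.52 over the 8 subunits. Chat, the enzyme of acetylcholine synthesis, rose by 5.74 ± 0.59 (edgeR adjusted p = 0.000642), Slc5a7, the choline transporter, by 5.56 ± 0.81 (0.00204) and Ache, acetylcholinesterase, by 3.20 ± 0.57 (0.00474). Slc18a3, the vesicular transporter, went from 0 and 0.753 CPM to 122 and 117 CPM (edgeR adjusted p = 0.000382). Bche, butyrylcholinesterase, fell, from 5.19 and 3.01 CPM to 0.17 and 0 CPM (edgeR adjusted p = 0.0245). In Pou4f1-positive wells Chat, Slc5a7, Ache and Slc18a3 rose as well, Chat by 5.13 ± 0.54 (edgeR adjusted p = 0.000325), and Bche did not pass the filter on low counts.

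Of 9 chaperones and modulators of nicotinic receptors, 1 rose and 1 fell between E18 and P4, a share near the 19.6% of all genes called. These were Ric3 at 0.87 ± 0.24 (edgeR adjusted p = 0.0286) and Lypd1 at -1.76 ± 0.54 (0.0423). In Pou4f1-positive wells neither was called (edgeR adjusted p = 0.0776 and 0.108). From embryonic to postnatal stages, 4 of the 5 acetylcholine genes and 6 of the 9 chaperones and modulators rose and none fell, the largest among the latter being Lynx1 at 2.84 ± 0.37, Vsnl1 at 2.17 ± 0.43, Lypd6b at 1.45 ± 0.50 and Tmem35a at 1.08 ± 0.24. Of 3 muscarinic receptors tested, Chrm1 and Chrm2 rose in that comparison (4.28 ± 0.98 and 1.68 ± 0.35) and none was called between E18 and P4. These counts are to be read against the 50.5% of all genes called and the 25.7% called higher.

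Of 8 tested protein-coding neighbours of the gene cluster within 250 kb, 0 were called between E18 and P4 by edgeR, which called 19.6% of all genes, or by DESeq2, which called 23.4%. At an unadjusted p below 0.05 in edgeR there were 2, beside 36.8% of all genes, and the median log2 fold change of the 8 was 0.45, beside -0.07 over all genes. A list of 8 genes is too short to tell 0 calls from the share of all genes, and in Pou4f1-positive wells 1 of the 8 was called, Fbxo22, at 1.05 ± 0.26 (edgeR adjusted p = 0.0154). Between E11 and E13, where 1.45% of all genes were called, 1 of the 8 was called, Crabp1, a retinoic acid binding protein, which was at 4509 and 3118 CPM at E11 and 11.9 and 4.78 CPM at E13 (log2 fold change -8.98 ± 0.92, edgeR adjusted p = 0.00201). Crabp1 and Chrna5 thus fell over the same interval. From embryonic to postnatal stages 2 neighbours rose (Nrg4 and Ube2q2) and 3 fell (Crabp1, Ireb2 and Psma4), a share near the 50.5% of all genes called.

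The genes whose level over the 15 series plates was most like that of a cluster gene were ranked among 17414 genes by Pearson's r of log2(CPM + 1), as a description, since plates share stage, library and depth. For Chrna3 they were Lrp11, Grip2, Slc18a3, Amy1 and Paqr9 (r = 0.98 for each). For Chrnb4 they were Chat, Tmem56, Ppp3cc, Lrrtm1 and Enox2 (0.97 to 0.98). For Chrna5 they included Ppp6c, Gak, Iba57 and Cgref1 (0.87 to 0.88). Among the subunits, Chrnb3 (0.96), Chrnb4 (0.94) and Chrna6 (0.94) were like Chrna3, while Chrna5, its neighbour, was at 0.28.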

How the data were processed

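Per the labels' protocols, single cells in 384-well plates were lysed by heat and sequenced by Cel-seq2, with 5 plates to a run. The sources used here do not say which plates shared a run, and run and stage cannot be told apart. Reads were trimmed with Trim Galore and aligned to mm10 with STAR 2.5.3a, per the submitters' processing notes. The counting program and annotation are not given there. The deposited values are expected counts per gene and well that the authors corrected for UMI collisions, as total, spliced and unspliced tables. Of the values above 0, 46.1% were whole as deposited in the series total table, and all gave whole UMIs (within 1e-06) when the correction for 4096 possible UMIs was undone. No column of per-sample values lacked a sample.

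Wells with at least 1000 UMIs, 500 genes and at most 20% mitochondrial counts were kept. No doublet caller was run. Every plate uses the same 384 barcodes, and no pair of kept wells held identical values. The expected counts were summed per plate and rounded to whole numbers, although plain counts had been planned for. Plates were compared with edgeR 4.0.16 (filterByExpr, TMM scaling, 14 series plates in 1 fit on stage, the left and right plates in another, E12 and the plate of both sides described only). DESeq2 1.42.0 served as an alternative. Wells were clustered with scanpy 1.11.5 and leidenalg 0.10.2 (2000 variable genes without the subunits, 30 components, 15 neighbours, resolution 1), and only non-neuronal groups were named by markers. The test was also run on simulated data. Annotation is GENCODE M21, which matched 37938 of 37994 identifiers, and promoters are from RefSeq. Intervals are 95% exact, and the limit for a count of 0 is 3 counts.

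The subunits and gene lists were chosen with earlier results of these data known. All 9 subunits were described, with log2 fold changes, or pooled CPM ratios where a group held few UMIs. From each list every called gene was named if there were 5 or fewer and otherwise the 4 with the largest change, and for each gene of the cluster the 5 genes with the highest Pearson's r, of which 1 is not reported here.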

Additional observations from a re-analysis of the deposited data

Results flagged for a closer look

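The plates that entered no comparison also gave subunit counts above the limit that a count of 0 allows. On the E12 plate, the only one of its stage, Chrna3 was at 45.1 CPM, Chrna4 at 139, Chrna5 at 4.84, Chrna7 at 17.3, Chrnb2 at 67.8 and Chrnb4 at 3.16 CPM. Chrna5 there lay between the E11 plates (21.4 and 22.3 CPM) and the E13 plates (0.568 and 0 CPM), and Chrna3 lay between the 2 E11 plates.

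On the E18 plate of both sides, Chrna3 was at 61.4 CPM, Chrna4 at 26.4, Chrna5 at 2.13, Chrna6 at 1.97, Chrna7 at 13.8, Chrnb2 at 39.2, Chrnb3 at 6.23 and Chrnb4 at 10.2 CPM. Chrna3, Chrna6, Chrnb3 and Chrnb4 were lower there than on any left or right plate. Of its wells 46.2% were Pou4f1-positive, against 73.7% to 81.0% on the left and right plates, and the part of this difference in the levels was not tested. In Pou4f1-positive wells Chrna3 was at 102 CPM on that plate and at 114 to 142 CPM on the left and right plates, and Chrnb4 was lower there too. Chrna6 (3.63 CPM, against 3.39 and 3.44 on the right plates) and Chrnb3 (11.4 CPM, against 10.8 on the first left plate) were not lower than on all of them in such wells. One label of this plate names another stage than the other labels do.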

How the results depend on the processing

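The difference in the share of the gene cluster between embryonic and postnatal stages kept its direction in every alternative, at 30.6 to 33.9 percentage points when a plate was left out. The number of subunits called was the same in most alternatives. DESeq2 called 2 subunits from E11 to E13 (Chrna7 in addition), 1 from E13 to E15 (Chrna7), 1 from E15 to E18 (Chrna4) and 2 from P7 to adult (Chrna5 and Chrna6). Beside these it called 951 of 15084 genes, 445 of 15422, 671 of 14746 and 1411 of 17114. Without a filter on low counts edgeR called 2 (Chrna4 in addition), 1 (Chrnb4), 1 (Chrna4) and 2 (Chrna5 and Chrna6) in these comparisons. Of 37590 genes it then called 1715, 1249, 1461 and 1766. Without wells above 3 times the plate median, an alternative chosen after seeing the data, 1 was called from E15 to E18, beside 58 of 17027 genes. Leaving out 1 plate gave 0 to 2 subunits from E11 to E13, 0 to 3 from E15 to E18, 3 to 6 from E18 to P4 and 4 to 6 from embryonic to postnatal stages (6 without the first E13 plate, with Chrna7 in addition), and the cause was not tested beyond the smaller number of plates. Chrna5 from embryonic to postnatal stages ran from -0.039 (without the second adult plate, a reversal) to 2.88 (without the first E18 plate) on the log2 scale when a plate was left out. The plate that then stands alone is assumed to vary like those of the other stages. With a replicate block, edgeR called the same number of subunits in each comparison, 6 of them from E18 to P4, and 2916 genes in all there against 3421 without it. As a check on pairing, the difference between the second and the first plate of a stage was taken for each gene. These differences were correlated between stages. Over 21 pairs of stages the correlation ran from -0.339 to 0.224 (median 0.014), and 4 pairs exceeded 0.1. The main fit used no pairing by plate number. Counts over all genes depended on the setting, from E11 to E13 253 (28 to 1715 over the alternatives), E13 to E15 16 (1 to 1249), E15 to E18 34 (4 to 2100), E18 to P4 3421 (574 to 5695), P4 to P7 1 (0 to 136) and P7 to adult 625 (27 to 1766). The median log2 fold change of all genes lay between -0.166 and 0.148 over the settings. Thinned shares of positive wells moved with the depth chosen, in 139 values. The first adult plate, with 56 wells and 758697 counts, limits what can be said of low subunits in adults.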
